A study of Rattus norvegicus with 8 samples.

Results

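The genes described here carry cells through G2 and mitosis: the cyclins that activate CDK1, the mitotic kinases, the spindle checkpoint, the motors of the spindle, the machinery that separates the chromosomes and the ring that divides the cell. A list of 48 such genes was matched by symbol to the arrays, and 44 of the 48 had a named probe set, among 13914 named probe sets tested in all. *Cdc25c*, *Tpx2*, *Ncapg* and *Nek2* had none and were not analysed here. The measurements came from primary granulosa cells (GCs), the somatic cells that surround the oocyte in the ovarian follicle, of 24 day old female Sprague-Dawley rats, cultured in M199 medium with testosterone at 30 ng/ml. All cells received a lentivirus at 2 infectious units per cell. The control group, called EGFP, received a lentivirus for the fluorescent protein EGFP (2 arrays). The FSH group received the same EGFP virus and follicle stimulating hormone at 100 ng/ml (3 arrays). The PKA-CQR group received a virus for PKA-CQR, a mutated catalytic subunit of protein kinase A that escapes the regulatory subunit and is therefore active without cAMP (3 arrays). RNA was taken after 24 hr., so that a cell exposed to FSH had its hormone from the start, whereas PKA-CQR first had to be made. The cells came from 3 separate collections of GCs. The controls thus shared the testosterone and the viral dose with both stimulated groups, but the EGFP virus with the FSH group alone. PKA-CQR over EGFP therefore also compares 2 different viruses. The question was how far active PKA by itself gave the pattern seen with the hormone.

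Entry into mitosis is driven by CDK1 bound to cyclin A or cyclin B, and it is reinforced by the phosphatase CDC25 and by the kinases PLK1 and Aurora A. The spindle checkpoint holds the cell in metaphase until all kinetochores are attached, after which the ubiquitin ligase APC/C with its activator CDC20 destroys securin and cyclin B. In follicles, FSH acts through cAMP and PKA both to make GCs divide and to make them differentiate. Signals are given as log2 RMA values, which the authors made from the probe intensities of each array. A difference of group means on this scale is a log2 fold change. Levels of different genes cannot be compared on it, because each probe set binds differently. A gene is called higher or lower where limma, fitted over all 8 arrays and all 13914 named probe sets, gave an adjusted p (Benjamini-Hochberg) below 0.05. RNA was extracted from whole cultures, so more cells in division and more message per dividing cell cannot be told apart in any value below.

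The arrays were alike in overall signal, with medians between 8.37 and 8.44, and 2 arrays of a group correlated at 0.993 to 0.997 over all named genes. Of 9 GC markers, 7 were called higher with FSH and 6 with PKA-CQR (median log2 0.94 and 0.82), among them *Inha*, the inhibin alpha subunit, while *Foxl2*, between 12.9 and 13.4 on the 8 arrays, was called with neither. All 44 mitotic genes had mean signals above the lower quartile of all named genes (6.17).

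Markers of other cells were present and some moved with the groups. For comparison, 13.4% of all named genes were called higher and 12.1% lower with FSH, and 6.48% and 6.02% with PKA-CQR. Of 10 theca and stroma markers, 2 were called higher and 3 lower with FSH and 2 higher and 1 lower with PKA-CQR. Their mean log2 signal was 7.78 to 7.91 with EGFP, 7.68 to 7.89 with FSH and 7.78 to 8.10 with PKA-CQR. Those called higher were *Cyp17a1* and *Star*. The paper lists *Star* as a steroidogenesis gene that both stimuli raise in GCs. Its log2 changes of 3.89 with FSH and 3.26 with PKA-CQR lift the means of the stimulated arrays, so these means do not follow stromal cells alone. *Dcn* and *Col3a1*, matrix genes of stromal cells, had the largest falls, with log2 changes of -2.20 and -1.86 with FSH and of -0.82 (not called) and -1.06 with PKA-CQR, and both were called higher with PKA-CQR than with FSH. Of 15 macrophage and leukocyte markers, 4 were called higher and 1, *Cd14*, lower with FSH, and 0 were called with PKA-CQR over EGFP (1 at an unadjusted p below 0.05). Their mean was 6.39 to 6.46 with EGFP, 6.61 to 6.74 with FSH and 6.36 to 6.60 with PKA-CQR, and their defining marker *Ptprc* lay between 4.36 and 4.92. Of 9 endothelial markers, *Kdr* was called lower with FSH (log2 -0.59) and 0 were called with PKA-CQR over EGFP (0 at an unadjusted p below 0.05), with a mean between 5.82 and 5.96 with EGFP and up to 5.99 with FSH, and *Pecam1* lay between 4.76 and 5.20. On every array the macrophage and leukocyte markers *Cd14*, *Cd68*, *Lyz2*, *Aif1* and *Laptm5* had signals above the lower quartile of all named genes. The endothelial markers *Kdr*, *Egfl7* and *Esam* did so too. The part of these cells in the results below was not tested.

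Promoters of mitotic genes are known, from human and mouse cells, for a pair of short elements. One is the CCAAT box, which the factor NF-Y binds. The other is the cell cycle genes homology region (CHR), through which MuvB complexes hold these genes silent in resting cells and, joined by MYBL2 and FOXM1, switch them on in G2. The stretches that follow show 6 of the genes whose values on every array are given below. These 6 were chosen by the presence or absence of these elements. How many of them hold each element is therefore no share of the mitotic genes. Each stretch runs from position -150 to 50 around the annotated start, 5′ to 3′ along the gene, from RefSeq on build GRCr8. Capitals mark CCAAT (or ATTGG on the other strand) and the CHR letters TTTGAA or TTCGAA (or TTCAAA on the other strand, TTCGAA being its own reverse). *Cdk1*, *Kif23*, *Kif22* and *Spc25* hold both elements, *Ccnb1* holds CCAAT boxes and no CHR letters, and the stretch of *Aurka* neither. The annotated start of *Aurka* comes directly after the letters cttcag, as at the end of an intron, and an ATG follows closely. That stretch may thus lie inside the gene, and the absence of both elements from it is no statement about the *Aurka* promoter.
Cdk1, chr20:19265143-19265342, plus strand: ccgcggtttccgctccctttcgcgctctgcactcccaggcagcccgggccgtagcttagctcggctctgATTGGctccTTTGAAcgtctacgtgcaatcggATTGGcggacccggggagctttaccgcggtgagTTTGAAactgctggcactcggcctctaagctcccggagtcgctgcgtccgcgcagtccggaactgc
Kif23, chr8:71320535-71320734, minus strand: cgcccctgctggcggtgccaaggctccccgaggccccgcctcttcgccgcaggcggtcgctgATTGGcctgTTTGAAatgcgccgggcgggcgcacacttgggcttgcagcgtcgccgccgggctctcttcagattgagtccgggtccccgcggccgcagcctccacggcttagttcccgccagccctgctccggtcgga
Kif22, chr1:191080829-191081028, minus strand: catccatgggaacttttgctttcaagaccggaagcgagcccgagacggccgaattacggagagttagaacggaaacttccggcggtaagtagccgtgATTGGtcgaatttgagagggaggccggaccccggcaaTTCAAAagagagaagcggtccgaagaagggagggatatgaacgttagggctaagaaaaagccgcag
Spc25, chr3:74396669-74396868, minus strand: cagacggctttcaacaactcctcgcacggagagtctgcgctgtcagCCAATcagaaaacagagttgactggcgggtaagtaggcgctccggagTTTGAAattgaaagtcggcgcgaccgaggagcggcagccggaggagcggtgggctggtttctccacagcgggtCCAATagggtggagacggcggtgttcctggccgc
Ccnb1, chr2:33655176-33655375, minus strand: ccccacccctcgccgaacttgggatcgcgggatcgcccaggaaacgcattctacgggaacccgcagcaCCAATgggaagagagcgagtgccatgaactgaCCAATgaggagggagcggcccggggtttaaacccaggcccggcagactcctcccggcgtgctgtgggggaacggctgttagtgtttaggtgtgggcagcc
Aurka, chr3:181560720-181560919, minus strand: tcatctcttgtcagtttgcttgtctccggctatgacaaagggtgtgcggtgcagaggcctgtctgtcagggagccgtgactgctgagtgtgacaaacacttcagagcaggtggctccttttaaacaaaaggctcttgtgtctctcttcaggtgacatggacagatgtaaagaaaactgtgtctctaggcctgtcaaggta

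A promoter entry of 250 bases before and 50 after the start was at hand for 39 of the 44 genes, and *Ccna2*, *Aurkb*, *Pbk*, *Ube2c* and *Racgap1* had none. CCAAT on either strand occurred in 30 of the 39 (76.9%), against 37.3% of the 9995 tested genes with an entry. The CHR letters occurred in 29 (74.4%), against 13.7% of all. Both stood together in 24 (61.5%, against 5.65%), and 20 promoters held 2 or more CCAAT boxes (51.3%, against 12.6%). Of the 39 CHR matches, 31 lay within 100 bases before the start or after it, and of the 68 CCAAT matches 36 did. The letters TGACG, the short form of the site of CREB, a factor that PKA phosphorylates, occurred on either strand in 11 promoters (28.2%, against 29.7%), and the full form TGACGTCA, which contains it, in 2 (5.13%, against 2.86%). The promoters of the genes called higher with FSH held CHR letters in 6 of 11 cases, those of the 4 genes called lower with FSH in 4 of 4, and those of the genes called with neither stimulus in 16 of 20. The entry of *Aurka*, which may not be its promoter, is counted among the 39 and among the genes called higher with FSH. A match is a run of letters and not a shown binding site.

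**Figure D1:**
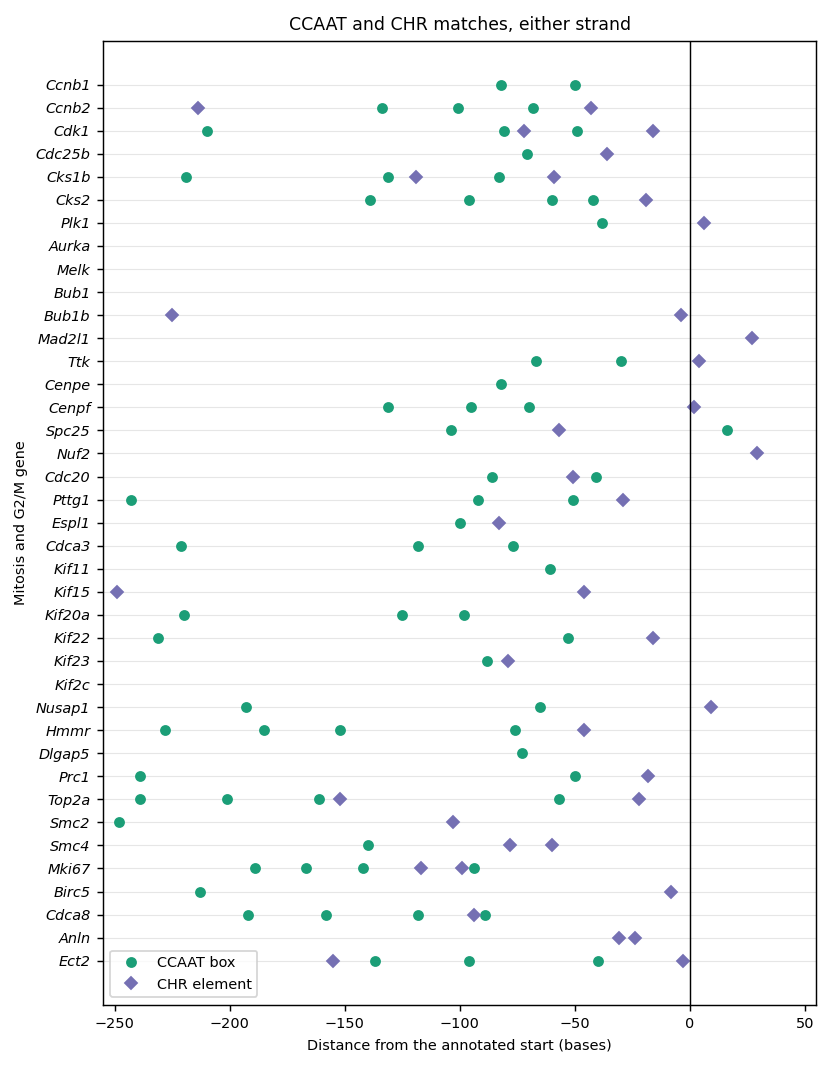
Positions of CCAAT (circles) and CHR letters (diamonds) on either strand in the 39 mitotic gene promoters with an entry; the x axis is the distance in bases from the annotated start (vertical line). Most diamonds, 31 of 39, lie between 100 bases before the start and the right edge, and 4 genes have no symbol at all.

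More mitotic genes were called higher than lower with either stimulus. With FSH, 12 of the 44 genes (27.3%) were called higher than EGFP and 4 (9.09%) lower, against 13.4% and 12.1% of all named genes, so that the share called lower was under that of all genes. With PKA-CQR, 18 (40.9%) were called higher and 0 lower, against 6.48% and 6.02%. An unadjusted p below 0.05 was found for 26 of the 44, and for 3387 of the 13914 named genes. The median log2 fold change of the 44 genes was 0.16 with FSH (0.06 over all named genes) and 0.35 with PKA-CQR (0.03 over all). The FSH median was 0.10 without FSH replicate 1 (0.07 over all) and 0.24 without EGFP replicate 1 (0.05 over all). The changes were modest. The largest rise was 2.62-fold, of *Kif20a* with PKA-CQR, and the largest fall 2.34-fold, of *Kif23* with FSH. Both comparisons share the same 2 EGFP arrays, and their counts lean on each of them. Without EGFP replicate 1, 5 genes were called higher and 2 lower with FSH and 10 higher with PKA-CQR (1182, 1090 and 491 of all named genes). Without EGFP replicate 2, 5 were called higher with FSH and 8 with PKA-CQR (1320 and 633 of all). Calls were thus lost over all genes too, with 1868 higher and 1680 lower with FSH and 902 higher with PKA-CQR on all 8 arrays.

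Counted by array values, the FSH arrays all lay above both EGFP arrays for 19 genes (43.2%, against 29.9% of all) and all below for 4 (9.09%, against 19.3%). The PKA-CQR arrays all lay above both EGFP arrays for 33 genes (75%, against 22.9%) and all below for 1, *Smc4* (2.27%, against 17.6%). Array by array, the median of the 44 genes stood 0.29, 0.07 and 0.12 above its EGFP mean on FSH arrays 1 to 3. Over all named genes it was 0.03, 0.05 and 0.07, so that FSH array 2 was close to all genes. On PKA-CQR arrays 1 to 3 the median of the 44 stood 0.42, 0.37 and 0.28 above the EGFP mean, against 0.04, 0.01 and 0.02 over all. The lowest PKA-CQR array was thus just under the highest FSH array.

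**Figure D2:**
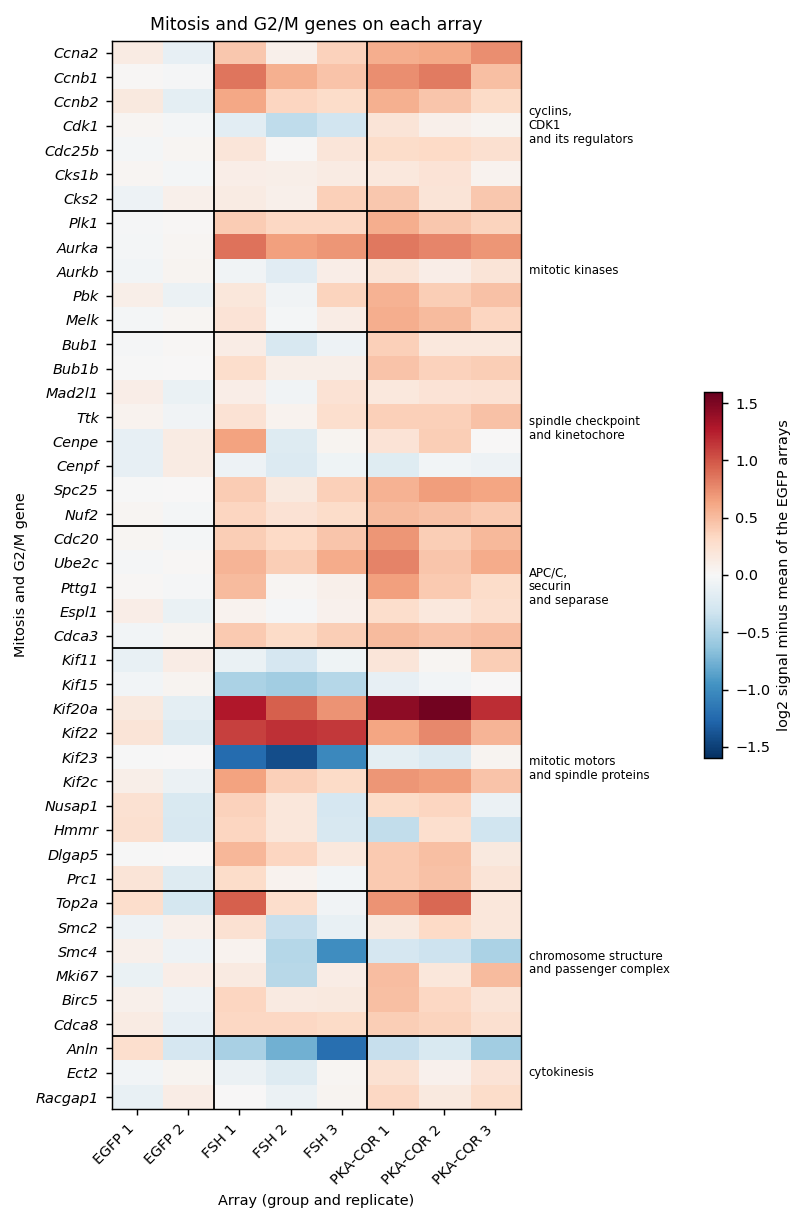
Log2 signal of each of the 44 genes (rows, by role) on each of the 8 arrays (columns) minus the mean of the 2 EGFP arrays; red is higher and blue lower, on a scale with equal limits on both sides. The PKA-CQR columns are red for most genes, while the FSH columns mix red rows with blue ones such as *Kif23*, *Kif15* and *Anln*.

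Among the cyclins, CDK1 and its regulators, the message of cyclin B1 rose with both stimuli and that of its kinase did not. *Ccnb1* had log2 signals of 9.11 and 9.06 on the EGFP arrays, 9.94, 9.65 and 9.54 with FSH and 9.82, 9.92 and 9.56 with PKA-CQR. Both stimulated groups lay wholly above the controls and overlapped each other. The rise was 1.55-fold with FSH (adjusted p = 0.0106) and 1.60-fold with PKA-CQR (adjusted p = 0.0134), and both calls were lost without either EGFP array (adjusted p up to 0.0614 and 0.0744). *Cdk1* itself had 10.65 and 10.59 with EGFP, 10.45, 10.22 and 10.32 with FSH and 10.83, 10.70 and 10.66 with PKA-CQR. Every FSH array was below every control, and every PKA-CQR array above them by a little. The fall with FSH was 1.22-fold (log2 -0.29, SE 0.09, adjusted p = 0.0473), close enough to the threshold that it was called in 1 of the 8 fits that left out an array (that without FSH replicate 1, the others up to adjusted p = 0.209). The log2 change with PKA-CQR was 0.11 (95% interval -0.10 to 0.32).

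*Ccna2*, the cyclin A2 of S and G2 phase, had 9.04 and 8.79 with EGFP, 9.34, 9.00 and 9.28 with FSH and 9.50, 9.52 and 9.66 with PKA-CQR. The FSH arrays overlapped the controls and the PKA-CQR arrays lay above all others. It rose 1.56-fold with PKA-CQR (adjusted p = 0.0105, and 0.0762 without EGFP replicate 2), and its FSH change of 1.22-fold missed the threshold (adjusted p = 0.126). *Cdc25b*, a phosphatase that activates CDK1, rose 1.22-fold with PKA-CQR just past the threshold (adjusted p = 0.0445), a call kept in 2 of the 8 fits without an array and lost with the replicate numbers as a block, a term for each number in the fit (adjusted p = 0.0761). *Ccnb2*, the other B cyclin, was near the threshold with FSH (log2 0.41, adjusted p = 0.0545) and with PKA-CQR (0.44, adjusted p = 0.0737), and was called with both with the replicate block (adjusted p = 0.00427 and 0.00692). The small CDK subunits *Cks1b* and *Cks2* changed by 0.11 and 0.20 with FSH and by 0.15 and 0.35 with PKA-CQR on the log2 scale, and none of these was called.

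Of the mitotic kinases, 2 of 5 (40%) were called higher with FSH and 4 of 5 (80%) with PKA-CQR, against 13.4% and 6.48% of all. *Aurka* encodes Aurora A, the kinase of the spindle poles, and had 8.02 and 8.08 with EGFP, 8.93, 8.70 and 8.76 with FSH and 8.89, 8.83 and 8.76 with PKA-CQR. Both stimulated groups stood well above the controls and overlapped each other. The rise was 1.67-fold with FSH (adjusted p = 0.000356) and 1.71-fold with PKA-CQR (adjusted p = 0.000817), and it held whichever array was left out. The difference between the stimuli was 0.03 on the log2 scale (95% interval -0.15 to 0.21). *Plk1*, the Polo kinase of mitotic entry, rose 1.28-fold and 1.37-fold (adjusted p = 0.0141 and 0.00819), the FSH call being lost without either EGFP array (adjusted p up to 0.0873) and the PKA-CQR call without EGFP replicate 1 (adjusted p = 0.066).

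*Melk*, a kinase of dividing and progenitor cells, had 7.62 and 7.69 with EGFP, 7.87, 7.62 and 7.77 with FSH and 8.23, 8.17 and 8.01 with PKA-CQR. The FSH arrays overlapped the controls, and the PKA-CQR arrays lay above both groups. It rose 1.39-fold with PKA-CQR (adjusted p = 0.0151) against 1.07-fold with FSH (adjusted p = 0.522), and the PKA-CQR call was lost without EGFP replicate 1 or 2 or PKA-CQR replicate 1 or 2 (adjusted p up to 0.11). *Pbk*, another mitotic kinase, rose 1.39-fold with PKA-CQR (adjusted p = 0.0385), a call kept in 2 of the 8 fits without an array, and had a log2 change of 0.16 with FSH (adjusted p = 0.398). *Aurkb*, the kinase of the chromosomal passenger complex, changed by -0.04 and 0.17 and was not called.

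Of the 8 spindle checkpoint and kinetochore genes, 2 (25%) were called higher with FSH and 4 (50%) with PKA-CQR, against 13.4% and 6.48% of all. *Spc25* and *Nuf2* encode parts of the NDC80 complex, which ties the kinetochore to the microtubule. *Spc25* had 8.77 and 8.78 with EGFP, 9.18, 8.93 and 9.16 with FSH and 9.33, 9.45 and 9.41 with PKA-CQR. The 3 groups did not overlap, with FSH in the middle. It rose 1.53-fold with PKA-CQR (adjusted p = 0.00318), in every fit without an array, and 1.24-fold with FSH (adjusted p = 0.0375), where the call was kept in 1 of the 8 fits without an array and lost with the replicate block (adjusted p = 0.073). *Nuf2* had 9.33 and 9.27 with EGFP, 9.64, 9.53 and 9.60 with FSH and 9.81, 9.77 and 9.72 with PKA-CQR, in the same order and again without overlap. It rose 1.22-fold with FSH (adjusted p = 0.0172, up to 0.0952 without an EGFP array) and 1.38-fold with PKA-CQR (adjusted p = 0.00348).

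The checkpoint kinase *Ttk* and the checkpoint protein *Bub1b* (BUBR1) rose with PKA-CQR, 1.33-fold and 1.32-fold (adjusted p = 0.0162 and 0.013). The *Bub1b* call was lost without either EGFP array (adjusted p up to 0.0822) and the *Ttk* call without either of them or PKA-CQR replicate 3 (adjusted p up to 0.103). With FSH their log2 changes were 0.19 and 0.16 (adjusted p = 0.163 and 0.213). Their partners *Bub1* and *Mad2l1* and the kinetochore proteins *Cenpe* and *Cenpf* were not called with either stimulus. Of these, *Cenpe* varied most within a group, with 7.05, 6.19 and 6.44 on the FSH arrays.

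Of the 5 genes of the metaphase to anaphase switch, 3 (60%) were called higher with each stimulus, against 13.4% (FSH) and 6.48% (PKA-CQR) of all. *Ube2c*, the ubiquitin-conjugating enzyme of the APC/C, rose with FSH by 1.43-fold and with PKA-CQR by 1.53-fold (adjusted p = 0.00934 and 0.00758), and *Cdc20*, the activator of the APC/C, by 1.31-fold and 1.45-fold (adjusted p = 0.0208 and 0.00849). *Cdca3*, known from frog eggs as a trigger of mitotic entry that the APC/C itself destroys, had 9.23 and 9.33 with EGFP, 9.70, 9.58 and 9.68 with FSH and 9.79, 9.73 and 9.77 with PKA-CQR. The stimulated groups lay above the controls without overlap, PKA-CQR just above FSH. It rose 1.29-fold and 1.40-fold (adjusted p = 0.00587 and 0.00336). The FSH call was lost without EGFP replicate 1 for *Ube2c* (adjusted p = 0.0636) and *Cdca3* (adjusted p = 0.054), and for *Cdc20* without either EGFP array or FSH replicate 3 (adjusted p up to 0.108). The PKA-CQR call was lost without EGFP replicate 1 for *Ube2c* (adjusted p = 0.0618) and without EGFP replicate 2 for *Cdc20* (adjusted p = 0.0543). Securin (*Pttg1*) had log2 changes of 0.21 and 0.46 and separase (*Espl1*), the protease it restrains, 0.04 and 0.24, and none was called.

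The kinesins held both the largest rises and the largest fall. *Kif20a* encodes MKLP2, which carries the passenger complex to the central spindle, and had 9.36 and 9.04 with EGFP, 10.48, 10.16 and 9.92 with FSH and 10.64, 10.75 and 10.38 with PKA-CQR. All stimulated arrays were above the controls, and the FSH and PKA-CQR arrays overlapped. With FSH it rose 1.98-fold (log2 0.98, SE 0.18, adjusted p = 0.00369), and PKA-CQR gave 2.62-fold (log2 1.39, SE 0.18, adjusted p = 0.00141). *Kif22*, the chromokinesin KID that pushes chromosome arms towards the metaphase plate, had 9.28 and 8.87 with EGFP, 10.17, 10.25 and 10.21 with FSH and 9.71, 9.85 and 9.62 with PKA-CQR. The 3 groups did not overlap, and here FSH was the highest. FSH raised it 2.19-fold (log2 1.13, SE 0.12, adjusted p = 0.000234) and PKA-CQR 1.57-fold (adjusted p = 0.00986). The calls of both genes over EGFP held whichever array was left out.

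*Kif23* went the other way. It encodes MKLP1, which with RACGAP1 forms the centralspindlin complex that bundles the midzone and recruits the cleavage machinery. Its signals were 11.98 and 12.00 with EGFP, 10.76, 10.58 and 10.96 with FSH and 11.84, 11.77 and 12.03 with PKA-CQR. Every FSH array was about a full log2 unit below the controls, while the PKA-CQR arrays overlapped them. It fell 2.34-fold with FSH (log2 -1.22, SE 0.12, adjusted p = 0.000144) and its log2 change with PKA-CQR was -0.11 (95% interval -0.39 to 0.17). *Kif15*, a motor that helps *Kif11* to keep the spindle bipolar, behaved alike on a smaller scale, with 8.65 and 8.72 with EGFP, 8.18, 8.13 and 8.22 with FSH and 8.56, 8.64 and 8.69 with PKA-CQR. The FSH arrays were again all below the other arrays, and the PKA-CQR arrays overlapped the controls. It fell 1.42-fold with FSH (log2 -0.51, SE 0.07, adjusted p = 0.00124), and its change with PKA-CQR was -0.06 (95% interval -0.23 to 0.11). The falls of *Kif23* and *Kif15* were called whichever array was left out. The stromal *Dcn* and *Col3a1*, *Cd14*, *Kdr* and the oocyte marker *Zp2* were likewise called lower with FSH than with EGFP and with PKA-CQR. The stromal *Pdgfra* was called lower with FSH than with EGFP too (log2 -0.61), and was not called between the stimuli. Of the theca and stroma list, *Star* and *Cyp17a1* were called higher with FSH than with EGFP. Of the macrophage and leukocyte list, *Cd68*, *Cd74*, *Tyrobp* and *Fcer1g* were called higher. Of the endothelial and oocyte markers, 0 were called higher with FSH. A part of other cells in the falls of *Kif23* and *Kif15* was not tested.

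**Figure D3:**
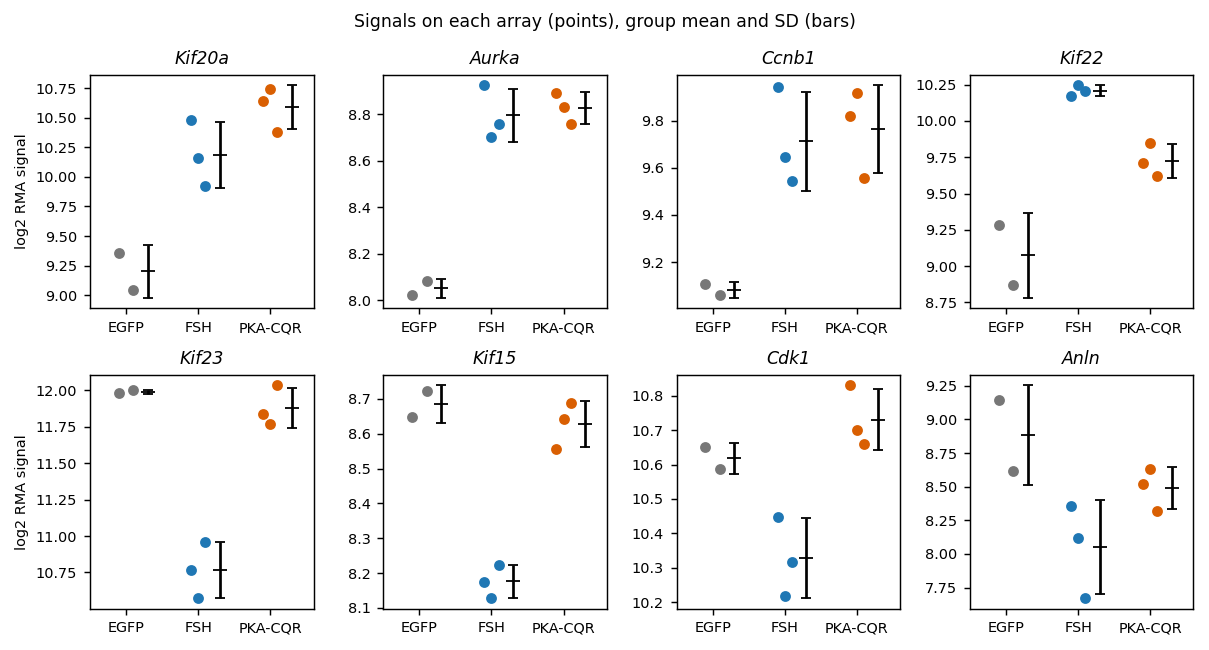
Log2 RMA signal (y axes, each with its own range) of 8 mitotic genes on each array (points) in the EGFP (2), FSH (3) and PKA-CQR (3) groups, with group mean and SD as bars. In the upper row both stimulated groups lie above EGFP, and in the lower row FSH lies below EGFP while PKA-CQR overlaps it or, for *Cdk1*, lies just above it.

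Among the other motors and spindle proteins, *Kif2c*, a kinesin that takes microtubules apart, was 1.36-fold higher with FSH and 1.53-fold higher with PKA-CQR (adjusted p = 0.0295 and 0.0129). The FSH call was lost without either EGFP array or FSH replicate 1 or 2 (adjusted p up to 0.172), the PKA-CQR call without EGFP replicate 2 (adjusted p = 0.0895). *Kif11*, the motor that pushes the spindle poles apart, *Nusap1*, *Hmmr*, *Dlgap5* and *Prc1*, which bind or bundle spindle microtubules, were not called. Their log2 changes ran from -0.15 (*Kif11*) to 0.35 (*Dlgap5*) with FSH and from -0.15 (*Hmmr*) to 0.36 (*Prc1*) with PKA-CQR.

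Of the genes of chromosome structure and the passenger complex, *Cdca8*, which encodes borealin, was the one called. It had 8.97 and 8.71 with EGFP, 9.17, 9.17 and 9.14 with FSH and 9.24, 9.20 and 9.10 with PKA-CQR, all stimulated arrays lying above the controls by a little. The rise was 1.25-fold (FSH) and 1.26-fold (PKA-CQR), with adjusted p = 0.0329 and 0.0438, and these calls were kept in 3 and 1 of the 8 fits without an array. *Birc5*, survivin, had log2 changes of 0.21 and 0.34, which were called with the replicate block (adjusted p = 0.0391 and 0.0141). *Mki67*, the widely used marker of cycling cells, had 8.13 and 8.33 with EGFP, 8.38, 7.79 and 8.35 with FSH and 8.73, 8.41 and 8.74 with PKA-CQR. Its PKA-CQR arrays were all above the other arrays, yet with log2 changes of -0.06 and 0.40 it was called with neither stimulus (adjusted p = 0.855 and 0.24). *Top2a*, the topoisomerase that untangles sister chromatids, changed by 0.40 and 0.61, and the condensin subunits *Smc2* and *Smc4* by -0.08 and -0.47 with FSH and by 0.21 and -0.37 with PKA-CQR, without a call.

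Of the 3 cytokinesis genes, 0 were called higher and 1 was called lower with FSH, against 13.4% and 12.1% of all. *Anln*, the scaffold of the contractile ring, had 9.14 and 8.62 with EGFP, 8.36, 8.12 and 7.67 with FSH and 8.52, 8.63 and 8.32 with PKA-CQR. The FSH arrays were all below the controls, and the PKA-CQR arrays reached up to the lower control. It fell 1.78-fold with FSH (log2 -0.83, SE 0.21, adjusted p = 0.0218, and 0.173 without EGFP replicate 1), and its change with PKA-CQR was -0.39 (adjusted p = 0.326). The platform annotation pairs this probe set with *Anln* and with *Anlnl1*, so that the signal may be shared with the latter. *Ect2*, the exchange factor that activates RhoA at the cell equator, and *Racgap1*, the partner of *Kif23* in centralspindlin, changed by -0.09 and -0.02 with FSH and by 0.17 and 0.26 with PKA-CQR on the log2 scale and were not called.

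**Figure D4:**
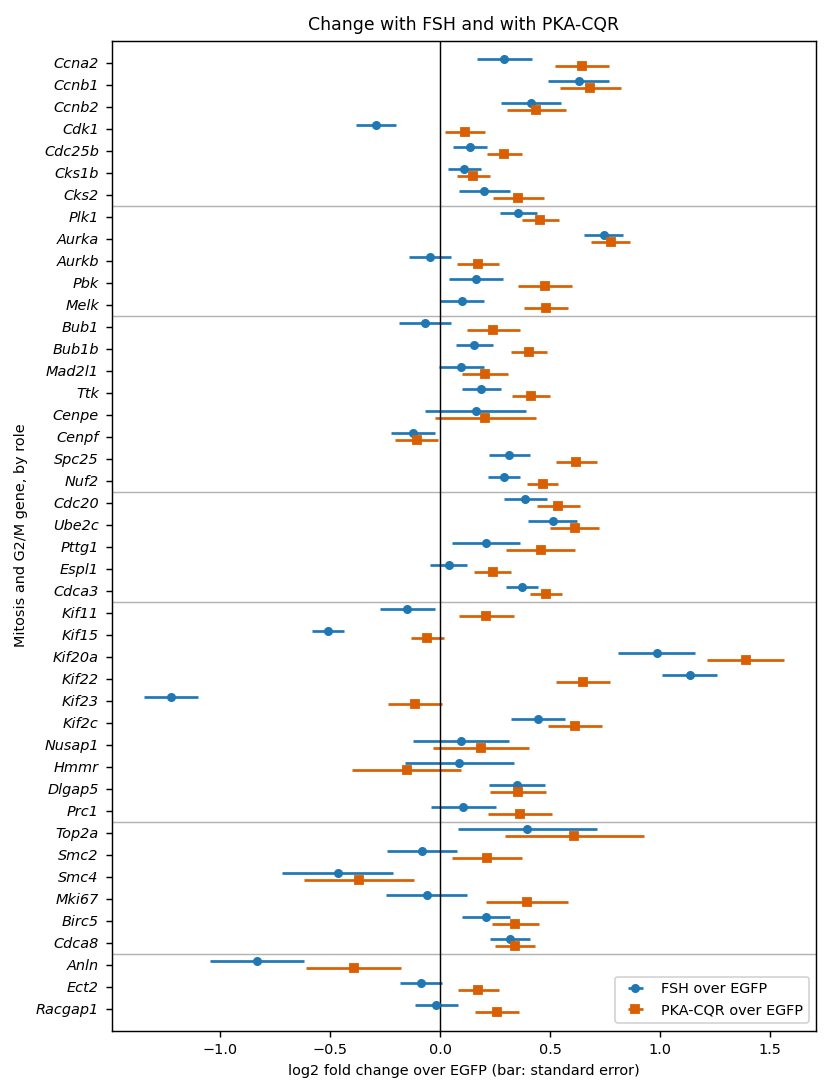
Log2 fold change over EGFP of each of the 44 genes with FSH (circles) and with PKA-CQR (squares), with standard errors as bars and the genes in order of role. The squares lie to the right of the circles in 42 of the 44 genes; *Kif22* and *Hmmr* are the exceptions, and *Kif23* has the widest gap.

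Set directly against each other, the stimulated groups differed in 5 mitotic genes. PKA-CQR was called higher than FSH for *Kif23* (2.16-fold, adjusted p = 0.000846), *Kif15* (1.37-fold, adjusted p = 0.00494), *Cdk1* (1.32-fold, adjusted p = 0.0224) and *Melk* (1.30-fold, adjusted p = 0.0416), which is 9.09% of the 44 against 3.95% of all named genes. FSH was the higher for *Kif22* alone (1.40-fold, adjusted p = 0.0368), 2.27% of the 44 against 2.96%. The differences in *Kif23* and *Kif15* held whichever array was left out. The others depended on single arrays: that of *Cdk1* was lost without FSH replicate 2 or 3 or PKA-CQR replicate 1 or 2 (adjusted p up to 0.0957), and those of *Melk* and *Kif22* were each kept in 2 of the 8 such fits (adjusted p up to 0.16 and 0.133).

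PKA-CQR had the higher mean in 42 of the 44, against 42.5% of all named genes, with a median log2 difference of 0.19 (-0.02 over all). All PKA-CQR arrays lay above all FSH arrays for 18 genes (40.9%, against 10.7% of all), and all below for *Kif22* (2.27%, against 12.1%). Same-numbered FSH and PKA-CQR arrays deviated together from their group means and were therefore also compared as pairs. The PKA-CQR array was the higher for 32, 43 and 35 of the 44 genes in pairs 1, 2 and 3, against 51%, 41.1% and 41.9% of all named genes. With these pairs as a block in a fit of the 6 stimulated arrays, an alternative chosen after the data were seen, 8 genes were called higher with PKA-CQR and *Kif22* lower. Over all named genes this fit called 859 higher and 681 lower, against 550 and 412 in the main fit. *Bub1* (log2 difference 0.31, adjusted p = 0.0378), *Kif11* (0.36, adjusted p = 0.0228), *Mki67* (0.46, adjusted p = 0.0183) and *Racgap1* (0.27, adjusted p = 0.0379) joined the 4 named above. With EGFP replicate 2 placed in the third culture group, for which its array code gives a reason, the block called 10 higher (856 of all). The paper, in contrast, assigns the controls to groups 1 and 2 and used their average for the third.

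Some genes also varied with the replicate. EGFP replicate 2, FSH replicate 3 and PKA-CQR replicate 3 were each the lowest array of their group for 10 of the 44 genes, namely *Ccnb1*, *Ccnb2*, *Kif20a*, *Kif2c*, *Nusap1*, *Prc1*, *Top2a*, *Smc4*, *Cdca8* and *Anln*, against 14.6% of all named genes. They were each the highest for *Kif11*, *Kif15* and *Kif23*, against 18.5% of all. *Top2a* showed this most plainly, with 8.70 and 8.15 with EGFP, 9.39, 8.71 and 8.37 with FSH and 9.15, 9.35 and 8.61 with PKA-CQR. Its lowest stimulated arrays were below the higher control, and none of its differences passed the test. The difference between the 3′ and 5′ beta-actin probe sets, a sign of RNA length, was 1.02 and 1.53 with EGFP, 1.30, 1.45 and 1.88 with FSH and 1.45, 1.34 and 1.66 with PKA-CQR, and was thus also highest on these 3 arrays of their groups. The mean signal of 6 oocyte markers, of which 1 was called lower with FSH and 0 with PKA-CQR, was lowest on the same arrays, with 6.18 and 5.74, then 6.21, 6.08 and 5.66, then 6.36, 6.69 and 5.86. The part of the oocyte markers in the values of the mitotic genes was not tested. With the beta-actin difference as a covariate, 17 genes were called higher and 3 lower with FSH (2437 and 1936 of all named genes), 25 higher and 0 lower with PKA-CQR (1367 and 1127 of all), and, between the stimuli, 10 higher and 1 lower with PKA-CQR (815 and 742 of all). *Top2a* was then called higher with both stimuli (log2 0.79 and 0.92, adjusted p = 0.00607 and 0.0048), and the fall of *Cdk1* and the rise of *Spc25* with FSH were not called (adjusted p = 0.0748 and 0.0513).

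A wider list held 120 mitotic genes outside the 48, of which 87 were measured. With FSH, 12 of the 87 (13.8%) were called higher and 5 (5.75%) lower, and with PKA-CQR 13 (14.9%) higher and 0 lower (30 at an unadjusted p below 0.05), with median log2 changes of 0.03 and 0.11. The FSH values were no higher than those of all named genes (13.4% called higher, median 0.06). With PKA-CQR, 6.48% of all named genes were called higher, and 3387 of the 13914 had an unadjusted p below 0.05. *Mis18a* and *Cenpn*, which help to place and to read the centromeric histone, rose most with FSH (log2 0.92 and 0.63, and 0.94 and 0.72 with PKA-CQR). *Cdc27*, a subunit of the APC/C, and *Pkmyt1*, a kinase that inhibits CDK1, fell most (-0.70 and -0.51). Of 16 measured genes of the DREAM, MYBL2 and FOXM1 regulators, 3 (18.8%) were called higher and 2 (12.5%) lower with FSH and 4 (25%) higher with PKA-CQR, against 13.4%, 12.1% and 6.48% of all. *Lin37*, a MuvB subunit, rose by 0.68 and 0.37 on the log2 scale, and was lower with PKA-CQR than with FSH (adjusted p = 0.0312).

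DNA replication, the phase before, was followed with 55 measured genes. With FSH 19 (34.5%) were called higher and 0 lower (27 at an unadjusted p below 0.05), and with PKA-CQR 31 (56.4%) higher and 0 lower (40 at an unadjusted p below 0.05). Of all 13914 named genes, 5036 with FSH and 3387 with PKA-CQR had an unadjusted p below 0.05. *Gmnn*, whose protein geminin blocks a second round of replication until mitosis, had 8.24 and 8.25 with EGFP, 9.88, 10.15 and 10.07 with FSH and 10.25, 10.58 and 10.42 with PKA-CQR, far apart from the controls in both groups. CHR letters were found in 15.6% of the replication gene promoters, compared with 74.4% of those of the mitotic genes and 50.7% of those of the wider mitotic list. Of 20 G1 cyclins and CDK inhibitors, 4 (20%) were called higher and 2 (10%) lower with FSH and 2 (10%) higher and 1 (5%) lower with PKA-CQR, against 13.4%, 12.1%, 6.48% and 6.02% of all. *Ccnd2*, cyclin D2, the G1 cyclin known to respond to FSH in GCs, rose by 0.95 and 1.11, and the CDK inhibitor *Cdkn1a* (p21) by 0.58 with FSH.

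**Figure D5:**
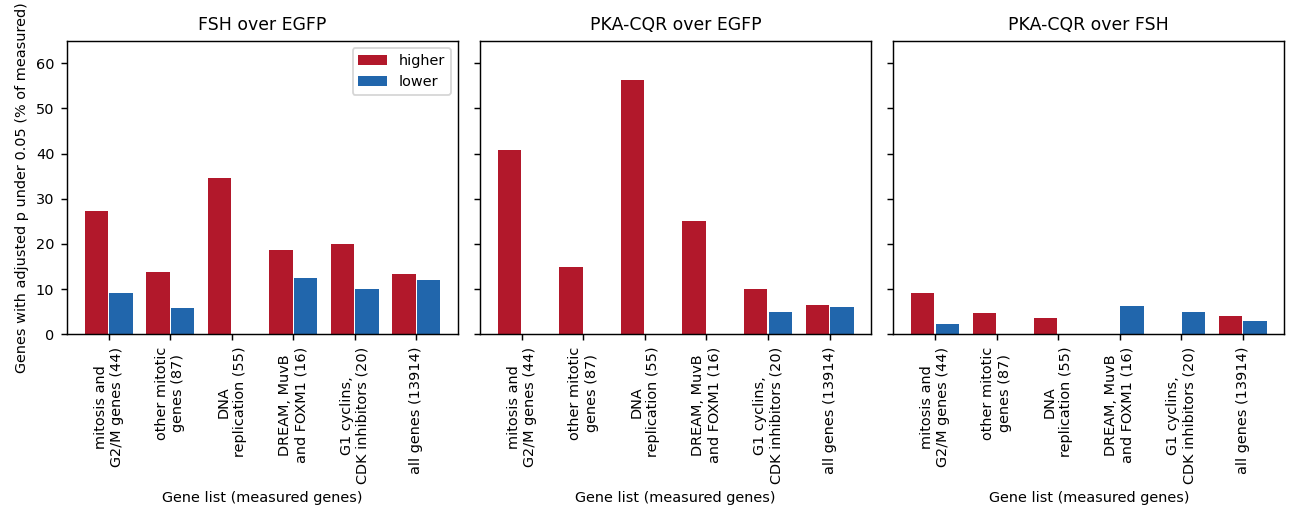
Share of each gene list (x axis, measured genes in brackets) called higher (red) or lower (blue) in the 3 comparisons, in percent of measured genes. The mitotic genes reach 27.3% higher with FSH and 40.9% with PKA-CQR, below DNA replication (34.5% and 56.4%) and above the share of all named genes (13.4% and 6.48%).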

How the data were processed

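Total RNA of 8 GC cultures was labelled by 3′ in vitro transcription and hybridised to Affymetrix rat genome arrays. The values deposited by the authors are log2 RMA signals. RMA corrects background, equalises the distributions of the arrays and summarises probes to probe sets, so that shifts shared by all genes are removed. The version of RMA and the chip definition are not given in the sources used here, and the study's methods name another summary, MAS, with a Student t test, whose values were not used here. The table held 31099 probe sets, of which 57 were controls (1 with a symbol, left out) and 17128 had no symbol, and a second table of the named probe sets differed in 0 of 111320 values. No array column was left unmapped. The authors' symbols were used, and 43 of the 44 equalled the platform annotation.

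Groups came from the sample labels. Group means were compared with limma 3.58.1 (lmFit and eBayes, R 4.3.3) over all 8 arrays, two-sided, adjusted by Benjamini-Hochberg over 13914 named probe sets. The scripts were tested on simulated data. Pairing was checked by correlating deviations from group means: same-numbered FSH and PKA-CQR arrays gave 0.23, 0.44 and 0.62, EGFP replicate 1 gave 0.42 and 0.13 with its FSH and PKA-CQR arrays, and EGFP replicate 2 gave -0.27 and -0.32, against 0.52 and 0.41 with the replicate 3 arrays. Deviations of the 2 EGFP arrays from their own mean are equal with opposite sign, so the correlations of EGFP replicates 1 and 2 are not separate checks. The pairing is that of the sample labels, and the labels call the replicates biological. The alternatives were other scalings, filters, variance models, array weights, blocks, a covariate, the methods' t-test and each array left out in turn. The mitotic genes, their roles and the other lists were chosen with earlier results of these data known. Values on every array were given for the 6 largest called changes of each comparison, the gene of lowest p with FSH in each role and any gene called against the majority, and for *Mki67*, *Top2a* and *Gmnn* and the FSH arrays of *Cenpe*, which were chosen after their values were seen, as were the cell type markers named. With 2 control arrays, precision is limited by the number of arrays.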

Additional observations from a re-analysis of the deposited data

Results flagged for a closer look

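In 5 mitotic genes the effect of PKA-CQR over EGFP differed from that of FSH by the direct test of one stimulus against the other (limma, adjusted p below 0.05). The log2 difference, PKA-CQR minus FSH, was 1.11 for *Kif23*, 0.45 for *Kif15*, 0.40 for *Cdk1*, 0.38 for *Melk* and -0.48 for *Kif22*. *Kif23*, *Kif15* and *Cdk1* were below EGFP with FSH and not called with PKA-CQR, *Melk* was above EGFP with PKA-CQR and not called with FSH, and *Kif22* was above EGFP with both. Groups of 2 and 3 arrays are too small for a test of single outlying arrays.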

How the results depend on the processing

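No called result changed direction under the alternatives run. The median log2 change of the mitotic genes moved beyond the spread between arrays only without EGFP replicate 1 with FSH and with array weights for PKA-CQR over FSH (0.26). With 1 array left out, medians ran from 0.10 to 0.24 (FSH), 0.32 to 0.41 (PKA-CQR) and 0.15 to 0.25 (PKA-CQR over FSH), and the numbers of genes called higher from 5 to 11, 8 to 18 and 2 to 5 and lower from 2 to 5, 0 to 0 and 0 to 1. The methods' t-test at p below 0.001 called 0 higher and 0 lower with FSH, 2 higher with PKA-CQR, and 1 higher and 0 lower with PKA-CQR over FSH (212, 178, 138, 136 and 95 of all named genes). After adjustment it called 0 and 1, 0, 0 and 0 (422, 376, 39, 71 and 47 of all). PKA-CQR over FSH had 20 genes called higher with array weights (1043 of all), 10 with the beta-actin covariate (815), 8 with the replicate block of the stimulated arrays alone (859) and 10 with EGFP replicate 2 in culture group 3 (856), where 1 gene, *Anln*, was also called lower with PKA-CQR than EGFP (1178 of all). With the replicate numbers as a fixed block over all 8 arrays, 14 genes were called higher and 4 lower with FSH, 23 higher and 0 lower with PKA-CQR, and 5 higher and 1 lower with PKA-CQR over FSH (1986, 1800, 1010, 969, 704 and 567 of all). With a random block these were 14, 4, 21, 0, 5 and 1 (2136, 1858, 1088, 1005, 673 and 547 of all; consensus correlation 0.18). The fixed block took away the call of *Spc25* with FSH and of *Cdc25b* with PKA-CQR. It added *Ccnb2*, *Birc5* and *Dlgap5* with FSH, these and *Prc1*, *Pttg1* and *Top2a* with PKA-CQR, and *Ccna2* for PKA-CQR over FSH. The cause of these changes was not tested, except that the fits without an array hold fewer samples. Of the values of single genes under all alternatives, 2555 stayed on their side of the threshold, 83 passed it and 178 no longer did. A planned repeat with further probe sets named through the platform annotation was not run, because that table pairs none of the unnamed probe sets with a gene here.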
